A study of Homo sapiens with 6 samples.

Results

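Expression of 10 genes of the ATF4 stress response and of glutathione breakdown was examined in the established human glioblastoma cell line U373MG exposed to tetrahydroisoquinoline alkaloids. The genes were ATF4, ATF3, DDIT3, DDIT4, TRIB3, ASNS, PSAT1, CHAC1, CHAC2 and VLDLR, taken by symbol from the probe annotation, and they were 10 of the 18417 genes measured. The cells received ET-770, an ecteinascidin, at 4.83 nM, ET-770-DR, a derivative of ET-770 with a pyridinecarbonyl group, at 1.70 nM, or RM (renieramycin M) at 3.10 nM for 24 hours. Each dose was the concentration that the study gives as the IC50 of that compound. The study determined it with a longer treatment than the 24 hours used for the arrays. There were 3 independent experiments, each made of 1 array of treated cells and 1 array of cells given the matching amount of dimethyl sulfoxide (DMSO, the vehicle), 6 arrays in all. No compound had a second array, so a fold change with 1 compound has no replicate check, and the doses differ, so values with different compounds are set side by side and were not tested against each other.

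All levels below are log2 signals after robust multiarray averaging (RMA), and 1 unit is a doubling. Changes are compound minus the DMSO array of the same experiment. The shared response is the mean of the 3 changes, tested by limma with the experiment as a block and adjusted over all genes. A gene rose or fell where its adjusted p was under 0.05. The compounds act as replicates of each other in that test. Its standard errors (SE) and p-values combine a gene's spread among 3 pairs of arrays with a variance pooled over all genes. They are therefore not the gene's own variation alone, and EIF2B5, whose 3 changes hardly differed, still had an SE of 0.12. Fits with 1 experiment left out have fewer pairs and rest even more on that pooled variance. The median change over all genes was 0.02 in the ET-770 experiment, -0.03 in the ET-770-DR experiment and 0.12 in the RM experiment. Array medians lay between 7.22 and 7.98 and differed more between experiments than within an experiment, so a comparison of levels across experiments carries that offset. The measurements are of bulk RNA, in which fewer cells of a type and less RNA per cell cannot be told apart. Of 10 astrocyte and glioma markers, 7 to 8 were above the array median on each array, while 0 of 5 neuron, 0 of 5 immune, at most 1 of 3 oligodendrocyte and at most 1 of 4 endothelial markers were. AQP4 and CHI3L1 were the glioma-list markers below the median on every array. GFAP was above it on the DMSO array of the ET-770-DR experiment alone, at 7.33 beside a median of 7.28. In the shared response 5 of the 10 astrocyte and glioma markers fell, beside 11.2% of all genes. The log2 of the summed signal of these markers went from 14.98 to 14.70, from 14.38 to 13.96 and from 15.09 to 14.54. What part this had in the values below was not tested.

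As background, ATF4 is a transcription factor whose protein is made mainly when kinases such as PERK and GCN2 phosphorylate the initiation factor eIF2, during endoplasmic reticulum stress or amino acid shortage. It binds with C/EBP partners to composite elements in the promoters of genes for amino acid supply and for further factors, among them ATF3 and DDIT3, which encodes CHOP. CHAC1 and CHAC2 encode gamma-glutamylcyclotransferases that cleave glutathione inside the cell to oxoproline and cysteinylglycine, and CHAC1 is a target of this pathway.

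In the shared response 7 of the 10 genes rose, namely ATF4, ATF3, DDIT3, TRIB3, ASNS, CHAC1 and CHAC2, against 13.1% of all genes. DDIT4 and VLDLR fell, 2 of 10 against 11.2% of all genes, and PSAT1 did not pass. The mean changes ran from -1.80 for DDIT4 to 1.40 for CHAC1, and the median over the 10 genes was 0.77 beside 0.03 over all genes. When the experiment was not used as a block, the mean changes were the same, but limma called no member as risen and DDIT4 alone as fallen. At that adjusted threshold 26 genes rose and 369 fell among all 18417 in the unblocked fit. At an unadjusted p under 0.05 the unblocked fit counted 4 members up and 2 down. The share of all genes at the unadjusted threshold was not counted, so these member counts have no background beside them.

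**Figure D1:**
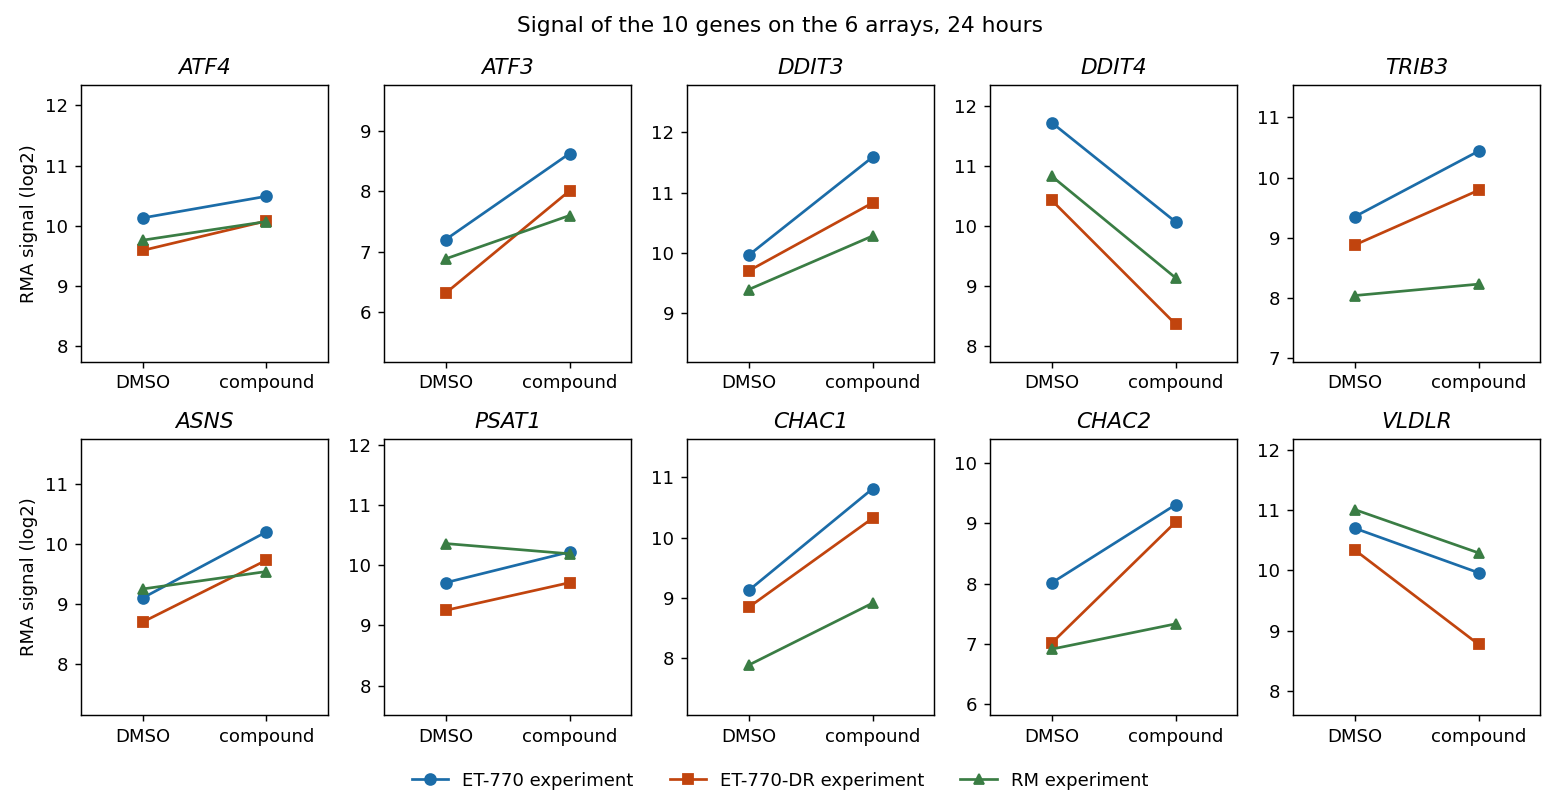
Log2 RMA signal of each of the 10 genes on the 6 arrays after 24 hours. Each line joins the DMSO array (left) to the compound array (right) of 1 experiment, with blue circles for ET-770, orange squares for ET-770-DR and green triangles for RM, and every panel spans the same number of log2 units. Lines climb in all 3 experiments for ATF4, ATF3, DDIT3, TRIB3, ASNS, CHAC1 and CHAC2, descend in all 3 for DDIT4 and VLDLR, and part ways for PSAT1.

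The promoter stretches that hold the letters of an ATF4 and C/EBP composite element are shown before the values. The members were taken as genes of the ATF4 response and of glutathione breakdown, and ATF4 is known to bind such elements in its targets. The count of matches is therefore not independent of the choice of the members, although no sequence was read to choose them. RefSeq windows from 250 bases before to 50 bases after each start site (GRCh38.p14) were searched on both strands for TGATGNAA, which reads TTNCATCA on the other strand, and for the cAMP response element TGACGTCA, which reads the same on both. All 10 genes had a window. The composite letters were found for ATF3, ASNS and CHAC1, 3 of 10, and in 4.46% of the 27305 genes with a window. The cAMP response element was found for 0 of the 10 and in 2.25% of those genes, so no member window held both. The stretches lie at chr15:40953236-40953295 (+ strand) for CHAC1, at chr7:97872443-97872502 (- strand) for ASNS and at chr1:212565190-212565249 (+ strand) for ATF3. All are upstream of the start site, and the matching letters are in capitals. They are printed 5′ to 3′ in the direction of the gene.
CHAC1: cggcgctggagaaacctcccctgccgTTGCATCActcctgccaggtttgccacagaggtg
ASNS: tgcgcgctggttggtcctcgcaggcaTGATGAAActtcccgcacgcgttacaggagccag
ATF3: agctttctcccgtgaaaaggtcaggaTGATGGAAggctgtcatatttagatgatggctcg

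Counting the first base of the start site as 0, the match lay at -209 to -202 in CHAC1, at -68 to -61 in ASNS and at -191 to -184 in ATF3. A match is a description of letters and no measurement of binding. ATF3 and ASNS each had 2 windows, of which 1 held the match. The other 7 members had no such letters in these windows, and 4 of them rose (ATF4, DDIT3, TRIB3 and CHAC2).

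By the mean over the 3 experiments, ATF4 itself changed least among the genes that rose, although TRIB3 and ASNS changed less with RM. Its level went from 10.13 to 10.49 with ET-770, from 9.59 to 10.08 with ET-770-DR and from 9.76 to 10.07 with RM. Each compound array was above its own DMSO array, but the groups overlapped, since the DMSO array of the ET-770 experiment was above the ET-770-DR and RM arrays. The mean change was 0.39 (SE 0.12, n = 3 pairs, limma adjusted p = 0.043). ATF4 was read by 2 probes, whose mean changes were 0.25 and 0.53. The call was lost without the ET-770 experiment (0.40, limma adjusted p = 0.32) and without the ET-770-DR experiment (0.34, limma adjusted p = 0.18). Those fits rest on 2 pairs and largely on the variance pooled over all genes. The mean itself moved little in them, so the lost calls do not show a smaller change. After quantile normalization of the 6 arrays the call was lost too (0.31, limma adjusted p = 0.068).

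ATF3, a stress-induced factor of the same bZIP class, went from 7.20 to 8.63 with ET-770, from 6.31 to 8.01 with ET-770-DR and from 6.88 to 7.60 with RM. All 3 compound arrays were above all 3 DMSO arrays. The folds were 2.69, 3.24 and 1.65 in that order, and the mean change was 1.28 (SE 0.18, limma adjusted p = 0.00077). The composite letters printed above for ATF3 stand in its promoter window.

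DDIT3 encodes CHOP, a C/EBP family factor that promotes cell death under prolonged stress. Its level went from 9.96 to 11.59 with ET-770, from 9.70 to 10.83 with ET-770-DR and from 9.39 to 10.28 with RM. Again no compound array overlapped the DMSO arrays. The folds were 3.09, 2.19 and 1.85, with a mean change of 1.22 (SE 0.16, limma adjusted p = 0.00047).

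TRIB3 is a pseudokinase induced by ATF4 and CHOP that binds ATF4 and dampens it. It went from 9.35 to 10.44 with ET-770, from 8.88 to 9.79 with ET-770-DR and from 8.04 to 8.23 with RM. The RM array stayed below the DMSO arrays of the other experiments, so the groups overlapped. The folds were 2.13, 1.87 and 1.15, and the mean change was 0.73 (SE 0.17, limma adjusted p = 0.013). Without the ET-770 experiment it was 0.55 and did not pass (limma adjusted p = 0.10). The direction with RM depended on the control, as TRIB3 was at -0.52 with RM when the average of all 3 vehicle arrays replaced its own DMSO array. That control moved the median of all genes to 0.45, -0.25 and -0.13 with ET-770, ET-770-DR and RM, so that TRIB3 with RM lay below that median too.

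DDIT4, also known as REDD1, restrains the growth kinase complex mTORC1 through the TSC proteins and is known as a target of ATF4, of hypoxia and of glucocorticoids. It fell in every experiment. Its level went from 11.72 to 10.07 with ET-770, from 10.43 to 8.37 with ET-770-DR and from 10.83 to 9.14 with RM. All 3 compound arrays were below all 3 DMSO arrays. The folds were 0.317, 0.239 and 0.310, and the mean change of -1.80 (SE 0.13, limma adjusted p = 2.2e-05) passed under every alternative fit run, the unblocked fit included (limma adjusted p = 0.0098).

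Of the enzymes of amino acid supply, ASNS, which makes asparagine, rose. Its level went from 9.10 to 10.20 with ET-770, from 8.70 to 9.73 with ET-770-DR and from 9.25 to 9.54 with RM, with no overlap between compound and DMSO arrays. The folds were 2.15, 2.04 and 1.22, and the mean change was 0.81 (SE 0.17, limma adjusted p = 0.0070).

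PSAT1, the aminotransferase of serine synthesis, went from 9.71 to 10.22 with ET-770 and from 9.25 to 9.71 with ET-770-DR, and from 10.36 to 10.19 with RM. The RM experiment thus had the highest DMSO level and a compound array below it. The mean change was 0.27 (SE 0.16, limma adjusted p = 0.28), and without the RM experiment it was 0.49 and passed (limma adjusted p = 0.0044). Against the average of all 3 vehicle arrays, PSAT1 was at -0.06 with ET-770-DR and 0.42 with RM, so the signs in those experiments turned. That control put the median of all genes at -0.25 with ET-770-DR and -0.13 with RM, so PSAT1 lay above the median with both.

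By the mean over the 3 experiments, CHAC1 had the highest change of the 10 genes, although CHAC2 and ATF3 were higher with ET-770-DR and CHAC2 was higher without the RM experiment. It went from 9.12 to 10.81 with ET-770, from 8.84 to 10.32 with ET-770-DR and from 7.88 to 8.91 with RM. Each compound array was more than 2-fold above its own DMSO array, at 3.21, 2.79 and 2.04, although the RM array was still below the DMSO array of the ET-770 experiment. The mean change was 1.40 (SE 0.15, limma adjusted p = 0.00017), and with each experiment left out it ran from 1.26 to 1.58.

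CHAC2, the other cytosolic enzyme of this family, had the widest spread between experiments. Its level went from 8.01 to 9.31 with ET-770, from 7.01 to 9.02 with ET-770-DR and from 6.91 to 7.33 with RM. The folds were 2.45, 4.01 and 1.34. The RM array lay below the DMSO array of the ET-770 experiment, so the groups overlapped. The mean change was 1.24 (SE 0.24, limma adjusted p = 0.0048), and it ran from 0.86 to 1.65 with each experiment left out.

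VLDLR, a receptor of the LDL receptor family for lipoproteins and reelin, went from 10.70 to 9.96 with ET-770, from 10.34 to 8.77 with ET-770-DR and from 11.01 to 10.29 with RM. All compound arrays were below all DMSO arrays, the RM array only just. The folds were 0.598, 0.337 and 0.605, and the mean change was -1.01 (SE 0.18, limma adjusted p = 0.0025).

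By the 3-fold threshold that the study used, few of the 10 genes passed with any compound. Above 3-fold were DDIT3 and CHAC1 with ET-770 (2 of 10, and 0.233% of all genes), ATF3 and CHAC2 with ET-770-DR (2 of 10, and 0.51%) and 0 of 10 with RM (0.0434%). DDIT4 alone was more than 3-fold lower with each compound, as were 2.15%, 2.12% and 1.36% of all genes with ET-770, ET-770-DR and RM. Just inside the upper threshold lay DDIT3 at 3.09 with ET-770, and just outside it lay CHAC1 at 2.79 with ET-770-DR. VLDLR at 0.337 with ET-770-DR lay just outside the lower threshold. These counts carry no test, as there was 1 array per arm.

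At 2-fold the picture widened. With ET-770, 6 of the 10 genes were above 2-fold (ATF3, DDIT3, TRIB3, ASNS, CHAC1 and CHAC2), where 2.01% of all genes were. With ET-770-DR there were 5, all of these but TRIB3, against 3.84%. With RM CHAC1 alone was above 2-fold, against 0.668%. Below 0.5-fold, DDIT4 was found with each compound and VLDLR with ET-770-DR, where 4.68%, 4.94% and 4.28% of all genes were with ET-770, ET-770-DR and RM. The median change of the 10 genes was 1.10 in the ET-770 experiment, 0.97 in the ET-770-DR experiment and 0.30 in the RM experiment. RM gave the change nearest to 0 for 9 of the 10 genes, all but DDIT4. The share of all genes for which this held was not counted, so the count has no background beside it. Over all genes, too, RM had the lowest shares above 2-fold and below 0.5-fold. Its dose and its experiment were its own, and the effect of compound, dose and experiment cannot be told apart here.

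**Figure D2:**
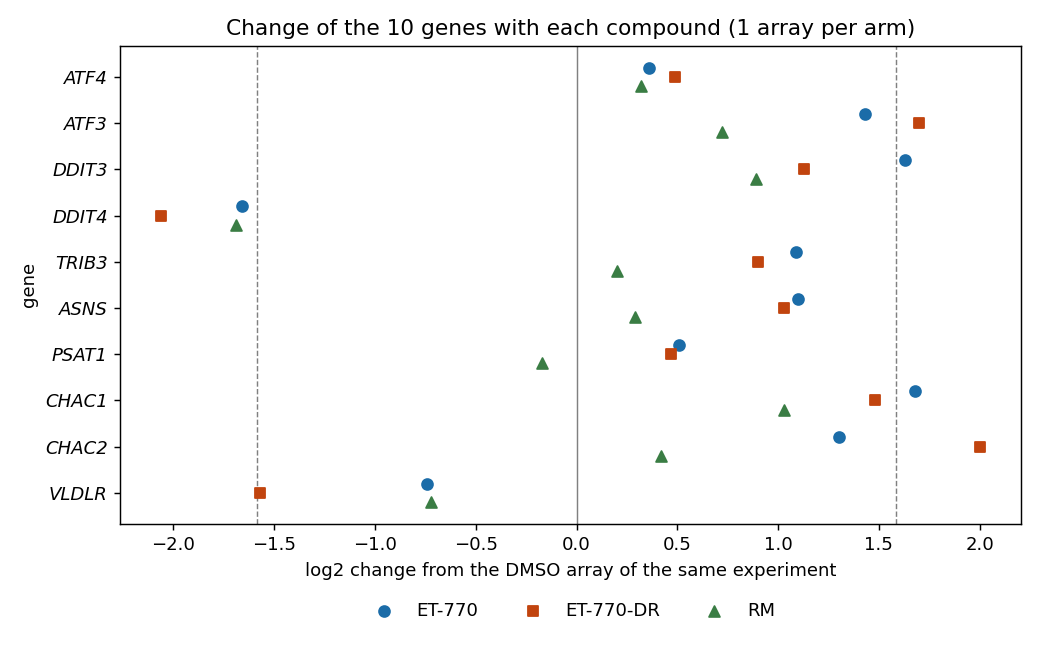
Log2 change of each gene from its own DMSO array, 1 array per arm, with blue circles for ET-770 (4.83 nM), orange squares for ET-770-DR (1.70 nM) and green triangles for RM (3.10 nM). Dashed lines mark a 3-fold change in each direction. DDIT4 is the gene beyond a dashed line with all 3 compounds, and the green triangles lie nearest to 0 for 9 of the 10 genes. The share of all genes with RM nearest to 0 was not counted.

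Compound and DMSO arrays did not overlap for 5 of the 10 genes. ATF3, DDIT3 and ASNS were higher on all 3 compound arrays than on all 3 DMSO arrays, as were 3.62% of all genes, and DDIT4 and VLDLR were lower, as were 5.34% of all genes. Of the genes that rose with overlap, TRIB3 had DMSO levels up to 1.31 apart, CHAC1 up to 1.25 and CHAC2 up to 1.10.

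**Figure D3:**
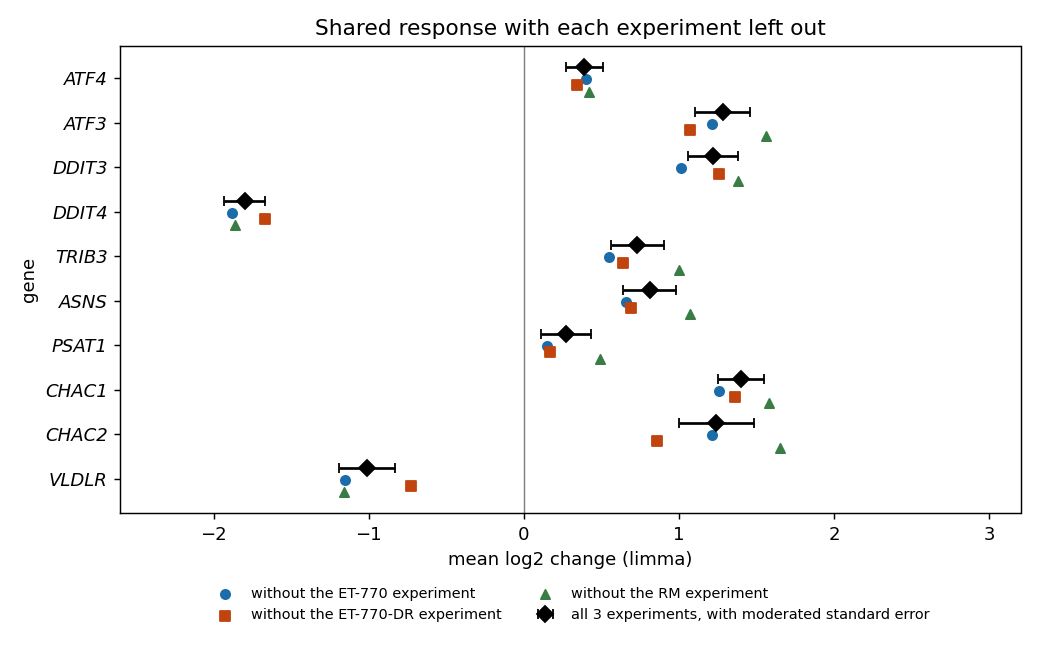
Mean log2 change of each gene in the shared response (limma). Black diamonds with bars give the mean and its moderated standard error over all 3 experiments, and coloured points give the mean without the ET-770 (blue circle), ET-770-DR (orange square) or RM (green triangle) experiment. The sign held for all 10 genes whichever experiment was left out, and CHAC2 moved over the widest range, from 0.86 to 1.65.

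The rest of the pathway was read from gene lists, whose counts stand beside the 13.1% of all genes that rose and the 11.2% that fell. Over all genes the share that rose was 6.52% without the ET-770 experiment, 8.59% without the ET-770-DR experiment and 19.0% without the RM experiment, and the share that fell was 8.17%, 10.2% and 14.3%, so counts with an experiment left out moved for all genes as well. In the list of the integrated stress response core (kinases, eIF2 and eIF2B subunits and phosphatase cofactors), 5 of 14 genes rose and 2 fell, and the list median was 0.27 beside 0.03 over all genes. PPP1R15A, known as GADD34, which directs the phosphatase that removes the phosphate from eIF2, rose by 1.28 on the log2 scale (SE 0.13, limma adjusted p = 0.00013), with folds of 2.73, 2.49 and 2.10. Its relative PPP1R15B rose by 0.77. EIF2B4, a subunit of the nucleotide exchange factor for eIF2, rose by 0.81, as did EIF2B2 by 0.60 and EIF2S1, the subunit of eIF2 that is phosphorylated, by 0.55. EIF2AK4, which encodes GCN2, fell by 0.88 (SE 0.12, limma adjusted p = 0.00075), and EIF2B3 fell by 0.75. EIF2AK3, which encodes PERK, was at -0.31 and did not pass (limma adjusted p = 0.15). Without the ET-770-DR experiment 3 genes of this list rose.

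Among 18 other ATF and C/EBP family factors and their partners, 8 rose and 3 fell, with a median of 0.34. NUPR1, a stress-induced chromatin protein, rose most, by 0.92 (SE 0.15, limma adjusted p = 0.0016). CEBPG, a partner of ATF4, rose by 0.55 and CEBPB by 0.62. CREB3L2 and ATF6, membrane-bound factors released by cleavage, fell by 2.11 and 1.43, and ATF7 fell by 0.77. The number that rose was 1 without the ET-770 experiment and 3 without the ET-770-DR experiment, where fewer genes of the whole array rose too. Of the 20 factors listed, including those not analysed here for expression, 16 had a promoter window and 3 of these held the composite letters, namely CEBPG, which rose, CREB3L2, which fell, and JDP2, which did not pass. CREB3L2 and CREM, which rose, held the cAMP response element. Matches thus stood in genes that rose and in genes that fell. The windows of CEBPG and of PPP1R15A are shown as examples chosen among the genes that rose, and they hold, in turn, the composite letters (chr19:33374045-33374104, + strand) and the cAMP response element (chr19:48872337-48872396, + strand), again in capitals and upstream of the start site. AARS1, whose window (chr16:70289660-70289719, - strand) holds the composite letters too, is a tRNA synthetase that did not pass over all 3 experiments.
CEBPG: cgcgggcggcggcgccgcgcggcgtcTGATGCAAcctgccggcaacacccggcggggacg
PPP1R15A: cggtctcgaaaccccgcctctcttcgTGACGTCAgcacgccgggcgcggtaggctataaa
AARS1: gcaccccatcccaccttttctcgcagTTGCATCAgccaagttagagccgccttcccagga

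The aminoacyl-tRNA synthetases, which load amino acids onto tRNAs and include many ATF4 targets, were called in neither direction. Of 13 genes (12 synthetases and the tRNA exporter XPOT), limma counted 0 risen and 0 fallen, and EPRS1 alone had an unadjusted p under 0.05, with a mean change of -0.30. SARS1 was at 0.33 and TARS1 at 0.31. Of the 11 genes with a promoter window, 7 held the composite letters. With ET-770 10 of the 13 were above their own DMSO level and with ET-770-DR 11 were, but with RM 2 were. The share of all genes above their own DMSO level was not counted. The list medians were 0.24, 0.30 and -0.36, beside 0.02, -0.03 and 0.12 over all genes. Without the RM experiment, where 19.0% of all genes rose, 5 of the 13 did so, AARS1 by 0.47, GARS1 by 0.43, SARS1 by 0.53, TARS1 by 0.45 and YARS1 by 0.65.

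Beside ASNS and PSAT1, 10 further genes of amino acid synthesis were measured, of which 2 rose and 1 fell (median 0.24). CTH, which makes cysteine by transsulfuration, rose by 1.17 (SE 0.19, limma adjusted p = 0.0019), with folds of 3.16, 2.46 and 1.46. MTHFD2, an enzyme of mitochondrial folate metabolism, rose by 0.65, and ALDH18A1, of proline synthesis, fell by 0.49. Both calls were lost without the ET-770 experiment, with changes of 0.55 and -0.52. Without the RM experiment 4 of the 10 rose, beside 19.0% of all genes. PHGDH and PSPH, the other enzymes of the serine pathway beside PSAT1, were at 0.20 and 0.06 and did not pass.

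Amino acid transporters were mixed, with 2 of 9 risen and 2 fallen (median 0.25). SLC3A2, the shared heavy chain of several transporters, rose by 0.71 and SLC38A2, which imports neutral amino acids, by 0.46. The light chains SLC7A11, which imports cystine in exchange for glutamate, and SLC7A5 fell by 0.90 and 0.45. The call of SLC38A2 was lost without the ET-770 experiment (0.45, limma adjusted p = 0.24) and without the ET-770-DR experiment (0.45, limma adjusted p = 0.063), and leaving out either of these experiments left 1 gene that rose and 1 that fell. Without the RM experiment 5 of the 9 rose, beside 19.0% of all genes.

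Among 14 other known ATF4 and CHOP targets, 5 rose and 3 fell (median 0.28). BCL2L11, which encodes the cell death protein BIM, rose by 1.69 (SE 0.12, limma adjusted p = 2.2e-05), with folds of 3.43, 3.39 and 2.90. SESN2, a leucine sensor that restrains mTORC1, rose by 1.28 and GDF15, a secreted stress signal, by 1.06. TNFRSF10B, a death receptor, and PMAIP1, which encodes NOXA, rose by 0.59 and 0.77. VEGFA, ERO1A and DDR2 fell by 0.68, 0.70 and 0.97.

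The chaperones and degradation factors of the endoplasmic reticulum, governed mainly by the ATF6 and XBP1 arms, served for comparison. Of 17 genes 1 rose and 2 fell, 5.88% and 11.8% beside 13.1% and 11.2% of all genes, and the median was -0.12. DNAJB9 rose by 1.06, and DNAJC3 and SEL1L fell by 1.00 and 0.86. The chaperone HSPA5, also called BiP, was at -0.32 and did not pass (limma adjusted p = 0.12). XBP1 itself was at 0.44 and did not pass (limma adjusted p = 0.083). All 17 genes had a promoter window, and 0 of the 17 held the composite letters.

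On the side of glutathione, CHAC1 and CHAC2 were set beside the other enzymes. Of 7 further genes of glutathione breakdown 1 rose, 14.3% beside 13.1% of all genes. This was GGCT, a gamma-glutamylcyclotransferase that acts on gamma-glutamyl amino acids, at 0.82 (SE 0.22, limma adjusted p = 0.021). Its level went from 9.91 to 10.96 with ET-770, from 8.74 to 10.11 with ET-770-DR and from 9.78 to 9.84 with RM. The RM pair thus moved by 0.06 on the log2 scale. The call was lost without the ET-770-DR experiment (0.55, limma adjusted p = 0.081). GGT7 and OPLAH, the oxoprolinase, were at 0.18 and 0.13, and the list median was 0.12.

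Of 11 genes of glutathione synthesis and recycling 2 rose and 1 fell (median 0.19), 18.2% and 9.09% beside 13.1% and 11.2% of all genes, so neither list stood far from the background. GCLC, the catalytic subunit of the first enzyme of glutathione synthesis, rose by 0.76 (SE 0.12, limma adjusted p = 0.0019), with folds of 1.51, 1.81 and 1.76. Its regulatory subunit GCLM was at 0.11 and did not pass. GSTM3, a glutathione transferase, rose by 0.56, a call lost without the ET-770 experiment (0.60, limma adjusted p = 0.067). SLC7A11, which supplies cystine and is listed with the transporters as well, was the gene that fell.

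**Figure D4:**
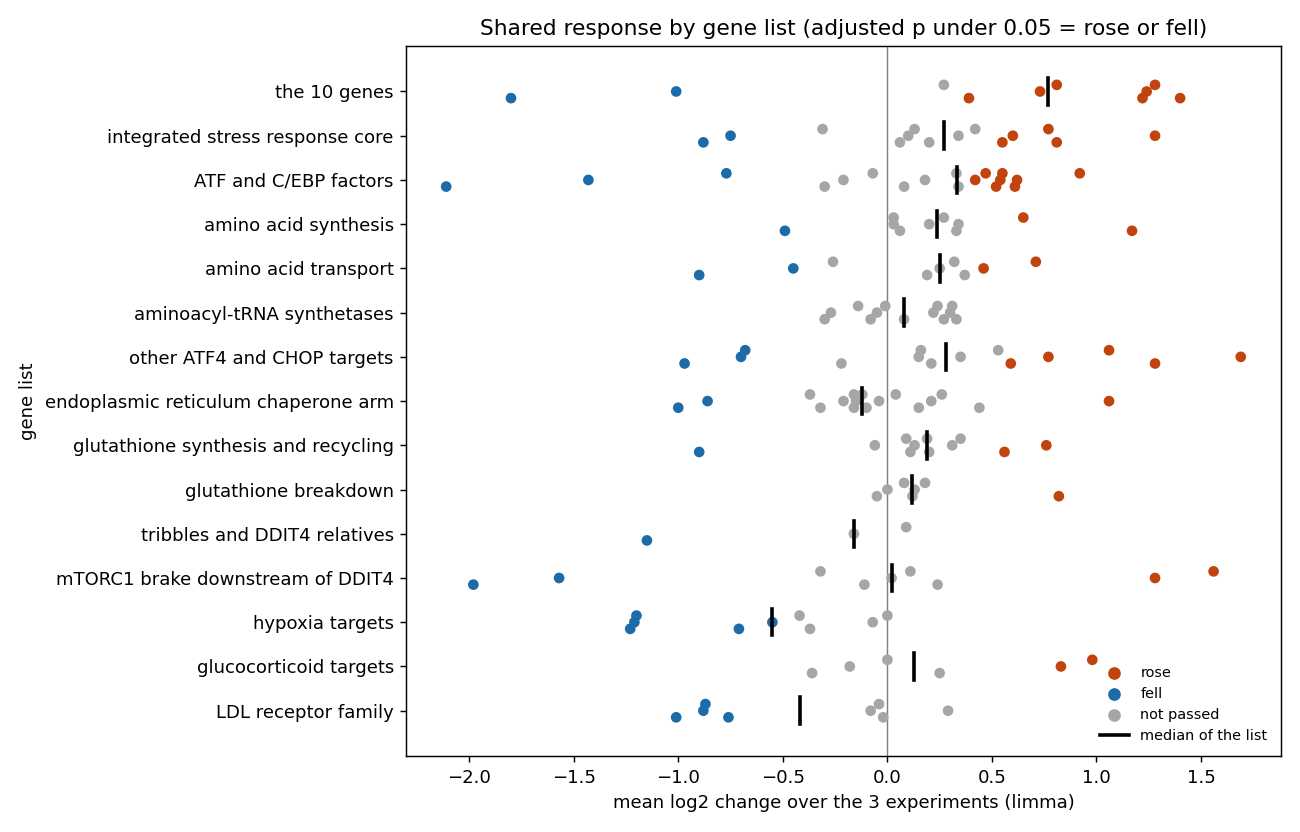
Mean log2 change over the 3 experiments (limma) for each gene of each list, 1 point per gene, with orange for genes that rose, blue for genes that fell and grey for genes that did not pass an adjusted p under 0.05. Black bars mark list medians. The 10 genes have a median of 0.77, the aminoacyl-tRNA synthetases are all grey, and the hypoxia targets lean to the left with a median of -0.55.

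The fall of DDIT4 and the rise of TRIB3 were set beside their relatives. TRIB2, a further pseudokinase of the tribbles family, fell by 1.15 (SE 0.15, limma adjusted p = 0.00054), while TRIB1 was at 0.09 and DDIT4L, the relative of DDIT4, at -0.16, neither of which passed. In the list of mTORC1 regulators downstream of or parallel to DDIT4, 2 of 9 rose and 2 fell. RPTOR, which encodes the mTORC1 scaffold raptor, fell by 1.98, with folds of 0.224, 0.210 and 0.349, and SESN3 fell by 1.57. RHEBL1, a relative of the mTORC1 activator RHEB, rose by 1.56, and SESN2 was the other gene that rose. TSC1 and TSC2 were at 0.11 and -0.11 and did not pass.

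Since hypoxia and glucocorticoids are known to induce DDIT4, lists of their targets were read too. Of 9 hypoxia targets 5 fell (median -0.55), among them NDRG1 by 1.23, the glucose transporter SLC2A1 by 1.21 and PDK1, which limits the entry of pyruvate into the citric acid cycle, by 1.20. P4HA1 and BNIP3 fell by 0.71 and 0.55. Without the RM experiment 8 of the 9 fell, beside 14.3% of all genes. Of 6 glucocorticoid targets DUSP1 and TSC22D3 rose, by 0.98 and 0.83. NR3C1, which encodes the glucocorticoid receptor, was at -0.36 and did not pass (limma adjusted p = 0.069). Whether these changes bear on DDIT4 was not tested.

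Other receptors of the family of VLDLR fell too, though not all of them. Of 8 other genes of LDL receptor and reelin signalling 4 fell, LRP5 by 1.01, LRP8 by 0.88, LRP6 by 0.87 and LRP1 by 0.76, and the median was -0.42. LRP8, the other receptor for reelin, had folds of 0.622, 0.540 and 0.480. Reelin itself (RELN) and its adaptor DAB1 were at -0.02 and -0.04 and did not pass. The receptors LRP4 and LRP2 were at 0.29 and -0.08 and did not pass either. LRP4 was above its own DMSO level with each compound, by 0.34, 0.10 and 0.45 with ET-770, ET-770-DR and RM.

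The genes whose 3 changes lay nearest to those of 4 members were found by Euclidean distance on the log2 scale, over 3 changes and all genes. Nearest to CHAC1 (1.68, 1.48 and 1.03) were EXO5 at a distance of 0.12, AJUBA at 0.18 and ZNF433 at 0.18. Nearest to CHAC2 (1.30, 2.00 and 0.42) were ZNF583 at 0.18, FAM161A at 0.20 and ZNF814 at 0.21. DDIT3 (1.63, 1.13 and 0.89) was closest to DLX2 at 0.13, FAM171A2 at 0.14 and SNORD13P2 at 0.19, and DDIT4 (-1.66, -2.06 and -1.69) to LGR4 at 0.13, COMMD1 at 0.15 and ACACA at 0.17. None of these neighbours was a member or on the lists above. With 3 changes per gene, such nearness is a description only.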

How the data were processed

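Total RNA of U373MG cells was hybridised to 6 Affymetrix Human Gene ST arrays. The authors normalized the scans by RMA in Expression Console (version not given in the sources used here) and deposited log2 signals, taken here as given. Whether the 3 experiments were normalized together is not stated, and the array medians differ between experiments. RMA background correction could not be varied from these values. The number of arrays, not a read depth, limits the precision.

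Of 33297 probes, 19460 had 1 gene symbol in the platform annotation, 1754 had several and 12083 had none. Probes of the same symbol were averaged, giving 18417 genes, 769 of them read by several probes. Columns of other samples numbered 0. The shared response was fitted to all genes with limma 3.58.1 (lmFit and eBayes, two-sided) in R 4.3.3 with compound against DMSO and the experiment as a block, and p-values were adjusted by Benjamini-Hochberg with a threshold of 0.05. The pairs come from the labels and the study's methods, which give each compound its own DMSO culture in a separate experiment. Replicate cultures within an arm are not described. The code was tested on simulated data. Folds were taken against the paired vehicle array, with the 3-fold threshold of the study in each direction.

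The members and the 14 pathway lists were chosen with earlier results of these data known, so their counts are descriptions and no set test was run. Named were all 10 members, the 3 genes of each list with the largest absolute mean change, relatives of members, genes completing a count of 5 or fewer, and the 3 nearest neighbours of CHAC1, CHAC2, DDIT3 and DDIT4. EIF2AK3, CEBPG, CEBPB, CREM, JDP2, AARS1, PHGDH, PSPH, HSPA5, XBP1, GCLM, TSC1, TSC2, RELN, DAB1 and GFAP fall outside this rule and were named after their values were seen. List genes without a probe of 1 symbol were not analysed here. Promoter windows are from RefSeq (GRCh38.p14). Alternatives were no block, quantile normalization, a mean-variance trend, leaving out the dimmest genes, the brightest probe, leaving out each experiment, the average of all vehicle arrays as control and a 2-fold threshold.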

Additional observations from a re-analysis of the deposited data

Results flagged for a closer look

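Some values had opposite signs with different compounds, and in no case was the difference between compounds tested. PSAT1 was at log2 changes of 0.51 in the ET-770 experiment, 0.47 in the ET-770-DR experiment and -0.17 in the RM experiment. SARS1, the seryl-tRNA synthetase, was at 0.44, 0.61 and -0.08, and TRIB1 at 0.14, 0.28 and -0.14, in the same order. OPLAH was at 0.14, -0.03 and 0.29, and DDIT4L at -0.62, 0.12 and 0.00. The median of the amino acid transporters was 0.32, 0.27 and -0.16, that of the aminoacyl-tRNA synthetases 0.24, 0.30 and -0.36, and that of the glucocorticoid targets 0.12, -0.12 and 0.37. With RM the median of all genes was itself 0.12, so the synthetase and transporter medians lay further below it. Groups of 3 arrays are too small for a test of outlying samples.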

How the results depend on the processing

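ATF3, DDIT3, DDIT4, ASNS, CHAC1, CHAC2 and VLDLR kept their direction and call in all 7 alternative fits that kept the experiment as a block, and ATF4, TRIB3 and PSAT1 changed call in 3, 1 and 1 of them. Without the replicate block, 0 members rose and 1 fell, and 8 of the 10 members and 28 of 41 other named genes lost their call. PSAT1 had no call to lose. Nor, among the 41, had EPRS1, SARS1, TARS1, GGT7, OPLAH, TRIB1, DDIT4L and NR3C1, so these totals understate the dependence on the block. Leaving out an experiment gave 5 to 8 members that rose and 2 that fell. DDIT4L ran from -0.31 to 0.06 over these fits, and its sign turned without the ET-770 experiment (limma adjusted p = 0.97). Against the average of all vehicle arrays, ET-770 put 5 members over 3-fold higher and 0 over 3-fold lower, and ET-770-DR put 2 over 3-fold lower, as it did after quantile normalization. The averaged control moved the median of all genes as well, to 0.45 for the ET-770 array and -0.25 for the ET-770-DR array. The share of all genes past 3-fold was not counted in these settings, so the member counts there have no background. What part the shift of the whole array had in them was not tested. Against the paired DMSO array, the counts at 2-fold and 0.5-fold were 6 over and 1 under with ET-770, 5 over and 2 under with ET-770-DR and 1 over and 1 under with RM. NR3C1 passed after quantile normalization (-0.44), with a trend and without the dimmest genes, and EPRS1 passed after quantile normalization (-0.37). With a trend 5 of 17 chaperone-arm genes fell, beside 12.1% of all genes. In that fit 5 of 11 glutathione synthesis genes rose, beside 15.2% of all genes. Also risen with a trend were 4 amino acid synthesis genes, 2 chaperone-arm genes and 1 gene of the synthetase list. Leaving out RM, 2 of 17 chaperone-arm genes rose, beside 19.0% of all genes. The causes were not tested. The number of arrays, 1 per arm, limits each value with a compound.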
